A study of Mus musculus with 24 samples.

Results

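The cortex and the cerebellum of sham-operated mice were compared across all genes, to describe which regulators, receptors, channels and glial genes set the 2 regions apart. The comparison rests on the 10 sham libraries of these regions (5 of cortex and 5 of cerebellum) out of 24 libraries in all, chosen by their labels for tissue and treatment. The study sequenced polyadenylated RNA from dissected mouse hippocampus, cortex and cerebellum from mice whose olfactory bulbs were taken out (olfactory bulbectomy) and from sham-operated mice. Each library is bulk RNA of one region. All animals were labelled wild-type, and both groups compared here had the sham operation and no bulbectomy. Neither strain, sex nor age was among the labels used here. Bulbectomy libraries of the same regions (3 of cortex and 2 of cerebellum, wild-type) share no library with the sham comparison and are given beside it. The labels name no animals, so p-values measure the spread between these libraries, which may be technical in part.

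The cerebral cortex and the cerebellum are built by different developmental programmes. The cortex arises from the embryonic forebrain: glutamatergic projection neurons are specified by factors such as Emx1, Lhx2 and Tbr1, while its interneurons migrate in from the ventral forebrain under Dlx factors and Lhx6. The cerebellum arises from the hindbrain next to the midbrain boundary, where En1 and En2 act. Its granule cells, glutamatergic and by far the most numerous neurons of the brain, carry Pax6, Zic and Barhl factors, and its Purkinje cells, the inhibitory output neurons of the cerebellar cortex, carry Lhx1, Lhx5 and Skor2. Bergmann glia, the radial astrocytes that ensheath Purkinje cell dendrites, have no counterpart in the adult cortex. In bulk tissue, fewer cells of a type and less RNA per cell cannot be told apart, and that holds for every result here.

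The 10 libraries held 10073878 to 17052728 reads assigned to genes. Mitochondrial genes took 2.53% to 11.1% of these, with means of 7.97% in cortex and 4.47% in cerebellum (exact permutation test, two-sided, p = 0.0476, 0.286 after Benjamini-Hochberg adjustment over 6 library measures). Levels are given as CPM, counts scaled to library size with edgeR's TMM factors, and 3 reads are worth 0.176 to 0.298 CPM in these libraries. Cerebellum library 1 stood apart. Its genes of the lowest quartile of GC content lay a median of 1.23 log2 units above the other 4 cerebellum libraries, and those of the highest quartile lay at -0.75. In the other 9 libraries these medians ran from -0.483 to 0.357. Cerebellum library 2 carried the noncoding RNA Bc1 at 21.5% of its reads, against 0.744% to 4.67% in the other cerebellum libraries. It also held more of the cortex's genes. Over 10 cortex markers, picked with their values known, its median level was 3.92% of the cortex mean, against 0.304% to 1.17% in the other cerebellum libraries. Cortex library 2 had the highest level of 10 cerebellum markers, likewise picked, at 1.52% of the cerebellum mean against 0.162% to 0.530%. Their part in the results was not tested beyond the further fits given here. The fits were repeated without cerebellum library 1, without cerebellum libraries 1 and 2, and without cortex library 2 and cerebellum library 2 (both libraries 2). In these fits some printed fold changes of called genes moved by over 1.5 times, and some genes with a printed fold change changed their call. The value or the change is then given for at least 1 of these fits. A further fit of all 10 libraries removed the trend of each library over GC content and exon length, and its values are given for some genes.

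**Figure D1:**
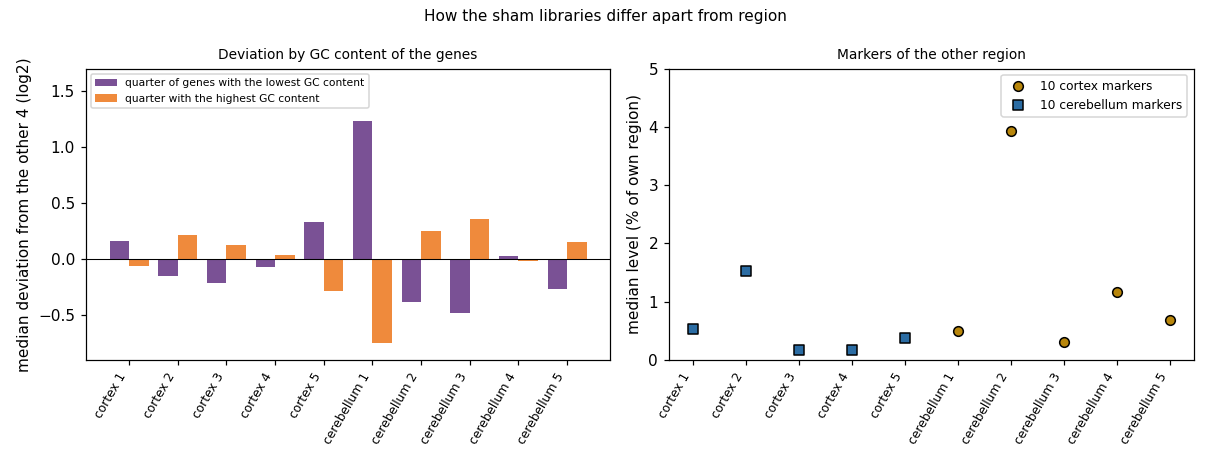
How the 10 sham libraries differed apart from region. Left: median log2 deviation of each library from the other 4 of its region, for genes of the lowest and the highest quartile of GC content; cerebellum library 1 reached 1.23 and -0.75. Right: median level of 10 markers of the other region, as a percent of their mean in their own region; cerebellum library 2 (3.92%) and cortex library 2 (1.52%) were highest.

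Of 14649 genes tested, 2567 (17.5%) were higher in cerebellum and 2367 (16.2%) higher in cortex at an adjusted p under 0.05 (edgeR quasi-likelihood test, Benjamini-Hochberg adjustment over all genes tested, used for every adjusted p of a gene). Against a difference of up to 2-fold, 659 (4.50%) were higher in cerebellum and 878 (5.99%) higher in cortex. The 5 cortex and 5 cerebellum values did not overlap for 3701 genes (25.3%). Fold changes are log2 values ± SE, cerebellum minus cortex, so a negative value is higher in cortex, and their median over all tested genes was 0.06. Without cerebellum library 1 the counts rose to 4153 and 4249, and over 2-fold to 880 and 1504. The median fold change was then -0.47 in the quartile of genes with the lowest GC content and 0.28 in the highest. The gene lists below were written with earlier results of these data known, so their counts describe the lists and are read against these shares. A member that passed the read filter through 1 region alone had to differ, and members under the filter are listed but not counted.

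**Figure D2:**
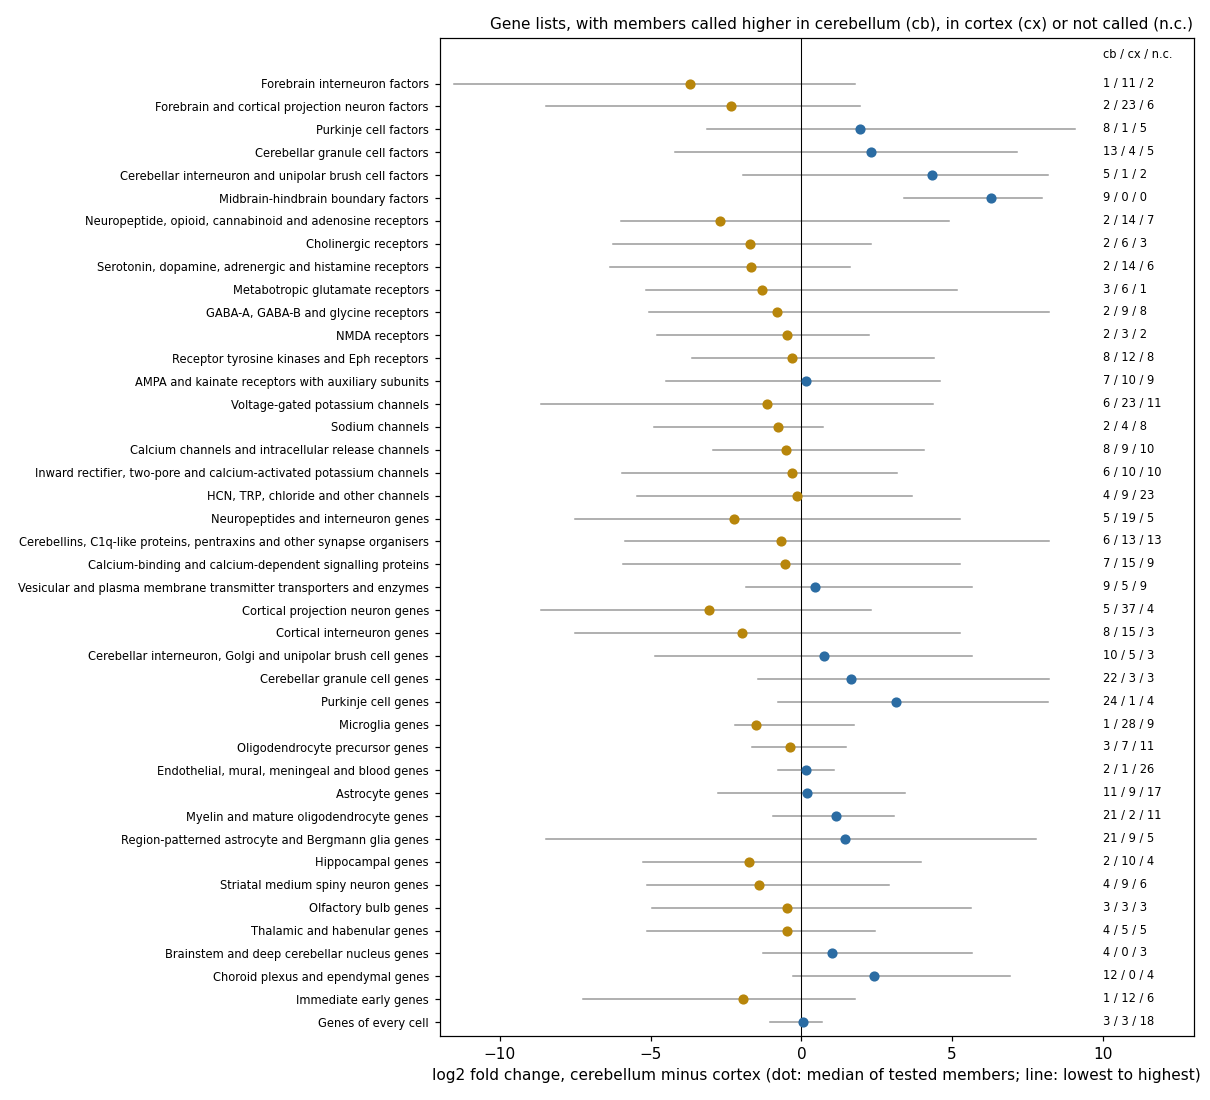
Log2 fold change, cerebellum minus cortex, for 42 gene lists grouped by class. The dot is the median of the tested members, the line runs from the lowest to the highest member, and the figures at the right are members called higher in cerebellum, called higher in cortex and not called. The medians of forebrain factor lists lie left of 0, those of cerebellar and boundary factor lists right of 0, and that of genes of every cell near 0 (3 / 3 / 18).

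Most regulators of forebrain projection neurons were higher in cortex. Among forebrain and cortical projection neuron factors, 2 of 31 tested members (32 listed) passed the test higher in cerebellum, 23 higher in cortex and 6 did not pass, with a median of -2.34. Emx1, a homeobox factor of the dorsal telencephalon, was at 42.2, 51.6, 46.1, 54.1 and 33.05 CPM in cortex libraries 1 to 5 and 0, 1.56, 0.0602, 0.448 and 0.0583 CPM in cerebellum libraries 1 to 5. Tbr1, a T-box factor of deep-layer projection neurons, was at 127, 121, 122, 111 and 109 CPM in cortex and 0.314, 5.03, 0.722, 0.299 and 0.816 CPM in cerebellum. In both the groups were far apart, and cerebellum library 2 was the highest of its region. Their differences were -6.84 ± 0.73 and -6.41 ± 0.68 (adjusted p = 2.17e-05 and 1.92e-05), and -8.23 and -7.67 without cortex library 2 and cerebellum library 2. Lhx2, a LIM-homeobox factor of cortical progenitors and upper-layer neurons, stood at 96.6, 76.8, 95.99, 89.5 and 84.3 CPM in cortex and 0.393, 2.69, 0.301, 0.224 and 0.408 CPM in cerebellum, a difference of -6.86 ± 0.58 (-8.04 without the same 2 libraries). Fezf2, which specifies subcortically projecting neurons, was at 21.6, 17.4, 26.7, 17.7 and 21.7 CPM in cortex, and in cerebellum it was at 1.39 CPM in library 2 and had no reads in the other 4. Bcl11b, its partner in corticospinal neurons, differed by -4.91 ± 0.62 (-5.70 without both libraries 2). Neurod6, a basic helix-loop-helix factor of cortical excitatory neurons, kept a measurable level in every cerebellum library, 12.5 to 26.7 CPM in cortex and 1.17 to 2.51 CPM in cerebellum (-3.69 ± 0.29).

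The factors of forebrain interneurons showed the same order. On that list 1 of 14 tested members (16 listed) passed the test higher in cerebellum, 11 higher in cortex and 2 did not pass, with a median of -3.69. Dlx1, an early factor of the ventral forebrain, was at 10.9 to 17.5 CPM in cortex and 0 to 0.347 CPM in cerebellum (-7.16 ± 0.58; -8.38 without both libraries 2). Dlx6, of the same family, had 198 reads in cortex and 2 in cerebellum, a ratio of 105 (95% counting interval 28.7 to 874). Lhx6, which marks interneurons of the medial ganglionic eminence, was at 15.9 to 20.4 CPM in cortex and 0.0602 to 1.39 CPM in cerebellum (-5.46 ± 0.60; -6.50 without both libraries 2). The exception was Prox1, a homeobox factor shared by interneurons and dentate granule cells, which was higher in cerebellum at 4.73, 3.46, 4.41, 4.60 and 5.99 CPM in cortex and 35.3, 10.3, 14.1, 9.93 and 9.44 CPM in cerebellum (1.77 ± 0.38, adjusted p = 0.00376).

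The engrailed genes of the midbrain-hindbrain boundary were higher in cerebellum. Of 16 midbrain-hindbrain boundary factors, 9 had enough reads to be tested, and 9 of 9 tested members (16 listed) passed the test higher in cerebellum, 0 higher in cortex and 0 did not pass, with a median of 6.28. A factor that passed the read filter through cerebellum alone had to differ, so the count is a description. En1, an engrailed homeobox factor, had 1 read in cortex and 432 in cerebellum, where it was at 3.93, 7.37, 7.82, 4.03 and 6.59 CPM, a ratio of 407 (95% counting interval 72.6 to 16100). En2, its paralog, was at 0.225, 0.624, 0.263, 0.0754 and 0.0644 CPM in cortex and 68.2, 19.2, 21.7, 20.8 and 16.8 CPM in cerebellum (6.81 ± 0.64; 7.64 without both libraries 2). Cerebellum library 1 was the highest for En2 and the lowest for En1. Pax5 and Gbx2, 2 further boundary factors, were under the filter at 0 to 0.299 CPM and 0 to 0.149 CPM in cerebellum. None of 26 Hox genes, which pattern the hindbrain behind the cerebellum, passed the filter, and their summed level was 0.263 to 0.515 CPM in cortex and 0.583 to 1.94 CPM in cerebellum.

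Of granule cell factors, 13 of 22 tested members (24 listed) passed higher in cerebellum, with 4 in the other direction and 5 not passing (median 2.30, and 1.47 with 13 and 7 calls without cerebellum library 1; 13 and 2 without both libraries 2). Zic1, a zinc-finger factor of granule cell precursors, was at 6.98, 8.46, 3.75, 7.54 and 8.89 CPM in cortex libraries 1 to 5 and 534, 139, 206, 172 and 167 CPM in cerebellum libraries 1 to 5. Zic2, its neighbour in the family, was at 10.9, 10.4, 6.85, 9.96 and 9.40 CPM in cortex and 256, 126, 158, 146 and 125 CPM in cerebellum, and Pax6, a paired-box factor of the rhombic lip, at 9.79, 13.7, 13.4, 10.9 and 11.2 CPM in cortex and 76.4, 133, 98.5, 91.7 and 103 CPM in cerebellum. None of these groups overlapped, and the differences were 5.09 ± 0.44, 4.09 ± 0.24 and 3.09 ± 0.18 (adjusted p = 3.8e-06, 2.64e-07 and 2.45e-07). Neurod1, which drives granule cell differentiation, was at 5.85, 8.11, 3.09, 6.79 and 5.86 CPM in cortex and 335, 45.3, 64.8, 61.9 and 57.5 CPM in cerebellum. Library 1 was 335 against a next value of 64.8, and the difference of 4.25 ± 0.61 became 3.29 without it. Barhl1, a homeobox factor of the granule lineage, was at 0 to 0.277 CPM in cortex and 17.3 to 22.3 CPM in cerebellum (7.09 ± 0.43).

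Purkinje cell factors leaned to cerebellum. On that list 8 of 14 tested members (15 listed) passed the test higher in cerebellum, 1 higher in cortex and 5 did not pass (median 1.94). Lhx1 and Lhx5, LIM-homeobox factors that act together in Purkinje cell differentiation, were at 0 to 0.277 CPM in cortex and 18.3 to 42.5 CPM in cerebellum and at 0 to 0.226 CPM in cortex and 13.4 to 21.5 CPM in cerebellum. They differed by 7.72 ± 0.55 and 7.32 ± 0.50, and Lhx1 by 8.41 without cortex library 2 and cerebellum library 2. Skor2, a corepressor needed for Purkinje cell maturation, had 1 read in cortex and 921 in cerebellum, a ratio of 867 (95% counting interval 155 to 34300). Lhx1os, a noncoding RNA divergent to Lhx1 that is not on this list, had 1 and 996 reads. Rora, the nuclear receptor lost in staggerer mice, was at 25.4, 24.9, 25.4, 26.6 and 29.4 CPM in cortex and 186, 22.1, 14.4, 27.2 and 18.3 CPM in cerebellum and did not pass (1.02 ± 0.64, adjusted p = 0.252). Library 1 alone put its mean above cortex, and without it the difference was -0.35 (adjusted p = 0.0911). With the GC and length trend removed, Rora was called higher in cerebellum (0.97, adjusted p = 0.00698). Ebf2, a helix-loop-helix factor of a Purkinje cell subset, passed at a low level of 0.113 to 0.461 CPM in cortex and 1.34 to 6.05 CPM in cerebellum (3.12 ± 0.55).

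Of 13 factors of cerebellar interneurons and unipolar brush cells, 8 had enough reads to be tested. 5 were higher in cerebellum, 1 was higher in cortex and 2 did not pass (median 4.32), and as for the boundary factors a factor tested through cerebellum alone had to differ. Pax2, a paired-box factor of molecular layer interneuron precursors, was at 0.675, 1.32, 0.461, 0.453 and 0.451 CPM in cortex and 15.9, 11.1, 18.8, 12.2 and 13.3 CPM in cerebellum (4.39 ± 0.35). Tfap2b, an AP-2 factor of the same lineage, differed by 4.24 ± 0.56 and by 3.60 without cerebellum library 1, where it was at 56.3 CPM. Eomes, known as Tbr2, marks unipolar brush cells in the adult cerebellum and intermediate progenitors in the embryonic cortex, and was at 0, 0.208, 0, 0.226 and 0.129 CPM in cortex and 9.34, 6.24, 4.88, 5.23 and 5.65 CPM in cerebellum (5.63 ± 0.55). Tlx3, a homeobox factor of excitatory hindbrain neurons, had 2 reads in cortex and 792 in cerebellum, a ratio of 373 (95% counting interval 103 to 3080). Lbx1, a homeobox factor of hindbrain and spinal cord neurons, is not on this list and was named by the rank of its difference. It had 2 reads in cortex and 1130 in cerebellum, a ratio of 532 (95% counting interval 147 to 4400).

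**Figure D3:**
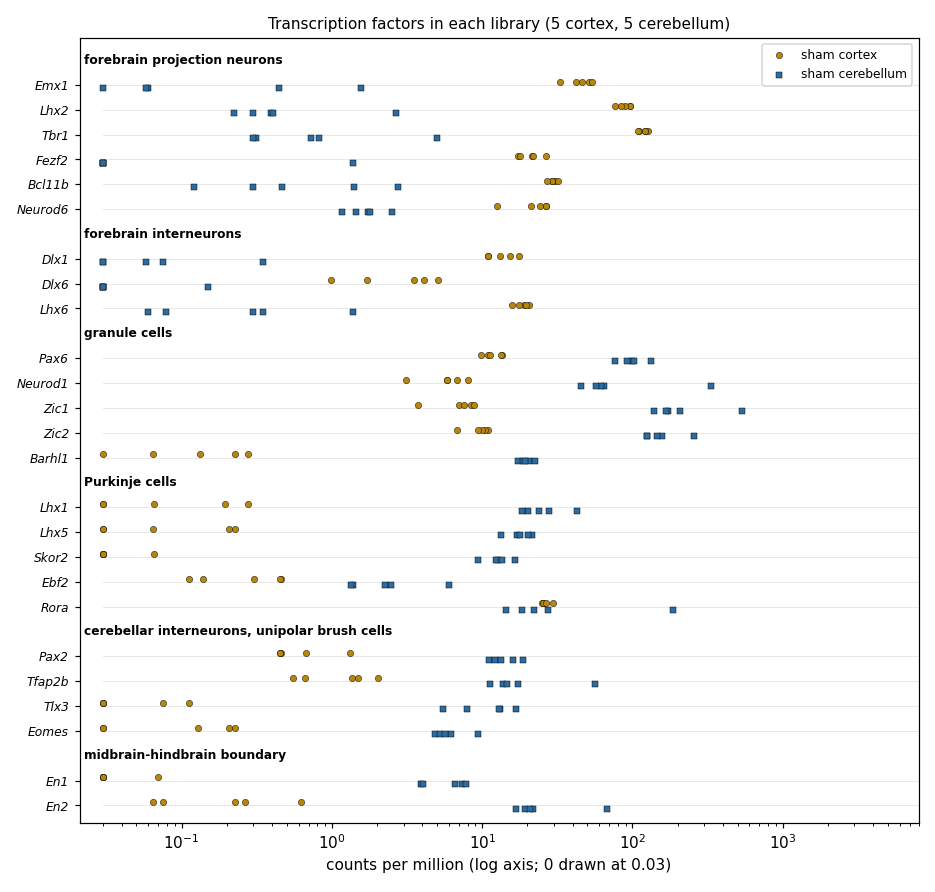
Level of each transcription factor in each of the 5 cortex (circles) and 5 cerebellum (squares) libraries, in CPM on a log axis, with 0 drawn at 0.03. Forebrain factors sit at or above about 1 CPM in every cortex library and mostly below it in cerebellum, with library 2 the highest of its region for Emx1, Lhx2, Tbr1 and Fezf2. Cerebellar factors lie higher in cerebellum, except Rora, whose groups overlap. Of these, Pax6, Zic1, Zic2 and Neurod1 also sit above 1 CPM in every cortex library.

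Promoter sequences are shown for 4 genes at opposite ends of the comparison, a granule cell receptor subunit (Gabra6), a granule cell secreted protein (Cbln3) and 2 cortical factors (Neurod6, Tbr1), each with a single annotated start in the RefSeq table (GRCm38.p6). Each run holds the 250 bases before the start, 5′ to 3′ on the gene's strand. Capitals mark CANNTG, the E-box that basic helix-loop-helix factors such as Neurod1 and Neurod6 bind, and TAATTA, a core that many homeodomain factors of the LIM and paired classes bind. Both motifs are palindromic, so each strand was searched at once, and they do not overlap here.
Gabra6 (chr11:42321073-42321322, minus strand): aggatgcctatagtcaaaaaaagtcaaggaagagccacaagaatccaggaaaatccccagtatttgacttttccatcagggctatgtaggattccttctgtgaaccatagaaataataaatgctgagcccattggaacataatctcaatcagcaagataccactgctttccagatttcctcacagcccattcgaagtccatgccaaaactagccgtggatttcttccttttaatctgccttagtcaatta
Cbln3 (chr14:55884257-55884506, minus strand): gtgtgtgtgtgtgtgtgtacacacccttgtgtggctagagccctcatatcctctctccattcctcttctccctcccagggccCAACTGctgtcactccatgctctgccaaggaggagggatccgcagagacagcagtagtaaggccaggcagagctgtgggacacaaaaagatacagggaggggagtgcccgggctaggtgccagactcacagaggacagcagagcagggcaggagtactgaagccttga
Neurod6 (chr6:55681264-55681513, minus strand): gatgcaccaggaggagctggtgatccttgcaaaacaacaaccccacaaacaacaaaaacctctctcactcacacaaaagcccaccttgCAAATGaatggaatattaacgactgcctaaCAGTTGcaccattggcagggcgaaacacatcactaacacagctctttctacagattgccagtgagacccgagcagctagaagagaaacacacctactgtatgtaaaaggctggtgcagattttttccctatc
Tbr1 (chr2:61804203-61804452, plus strand): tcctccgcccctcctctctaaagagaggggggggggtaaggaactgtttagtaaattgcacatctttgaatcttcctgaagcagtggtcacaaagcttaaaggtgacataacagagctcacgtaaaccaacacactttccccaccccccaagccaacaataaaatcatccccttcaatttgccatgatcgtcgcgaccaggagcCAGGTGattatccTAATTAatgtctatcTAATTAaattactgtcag
The Tbr1 window held 2 copies of TAATTA and 1 of CANNTG, the Neurod6 window 2 of CANNTG, the Cbln3 window 1, and the Gabra6 window neither. Of all 32851 windows in the table, 66.2% held CANNTG and 4.84% TAATTA. Among windows of tested genes the shares were 58.2% and 2.48%. Windows of genes over 2-fold higher in cerebellum held them in 65.8% and 2.91% of 619, and windows of genes over 2-fold higher in cortex in 62.9% and 4.06% of 887. A match describes letters in the window and not a bound site. Of 184 named genes, 126 had a window in the table.

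Inhibitory receptor genes differed by subunit. GABA-A receptors are pentameric chloride channels, and their alpha subunit sets kinetics and location. Gabra6, the alpha6 subunit known from cerebellar granule cells, was at 0.788, 1.80, 0.198, 0.226 and 0.129 CPM in cortex libraries 1 to 5 and 394, 93.2, 105, 188 and 139.9 CPM in cerebellum libraries 1 to 5. The groups did not come near each other, and the difference was 8.20 ± 0.73 (adjusted p = 4.84e-06; 9.43 without cortex library 2 and cerebellum library 2). Gabrd, the delta subunit that joins alpha6 in extrasynaptic receptors, was at 121, 133, 134, 115 and 102 CPM in cortex and 264, 465, 517, 351 and 414 CPM in cerebellum (1.74 ± 0.19). Gabra5, an extrasynaptic subunit of hippocampal and cortical pyramidal cells, ran the other way at 18.4, 7.48, 11.8, 15.7 and 14.9 CPM in cortex and 0.628, 1.04, 0.181, 0.149 and 0.117 CPM in cerebellum (-5.06 ± 0.55; -5.81 without both libraries 2). Gabra3 followed it at 46.7 to 70.3 CPM in cortex and 2.86 to 12.5 CPM in cerebellum (-3.24 ± 0.34).

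For Gabra2 and Gabra4 the size of the difference moved with cerebellum library 1. Gabra2 was at 83.5, 53.9, 40.2, 48.7 and 61.4 CPM in cortex and 58.96, 17.7, 13.7, 9.18 and 8.92 CPM in cerebellum, and Gabra4 at 22.5, 27.2, 22.2, 27.6 and 35.2 CPM in cortex and 22.5, 5.03, 2.47, 9.56 and 5.71 CPM in cerebellum. They passed at -1.41 ± 0.49 and -1.58 ± 0.48 (adjusted p = 0.0455 and 0.0245), and at -2.20 and -2.24 without library 1. Gabra2 lost its call on leaving out any 1 of the other 9 libraries, with adjusted p of 0.0638 to 0.12. Gabra4 lost it on leaving out cortex library 2, 4 or 5 or cerebellum library 2 or 5. Without both libraries 2, neither Gabra2 nor Gabra4 was called (adjusted p = 0.129 and 0.0878). Over the receptor list, 2 of 19 tested members (25 listed) passed the test higher in cerebellum, 9 higher in cortex and 8 did not pass, with a median of -0.81. The counts were 2 and 16 without library 1, and 2 and 4 without cortex library 2 and cerebellum library 2. In GC content the exons of these subunits ran from 38.4% (Gabra2) and 39.7% (Gabra6) over 42.2% (Gabra4), 43.1% (Gabra3) and 47.1% (Gabra5) to 54.8% (Gabrd). Library 1 was high in genes of low GC content. With the GC and length trend removed and all libraries kept, Gabra2 and Gabra4 stood at -1.09 and -1.50 (adjusted p = 0.0046 and 0.000482). The part GC content played was not tested apart from such fits.

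Glutamate receptors split within each family. On the list of AMPA and kainate receptors and their auxiliary subunits, 7 of 26 tested members passed the test higher in cerebellum, 10 higher in cortex and 9 did not pass (median 0.14, and -0.34 without cerebellum library 1). Gria1 was at 312, 185, 247, 212 and 233 CPM in cortex libraries 1 to 5 and 812, 525, 730.2, 544 and 613 CPM in cerebellum libraries 1 to 5, higher in cerebellum (1.44 ± 0.18, adjusted p = 7.33e-05). Gria4, a subunit of fast AMPA receptors, was at 19.2, 15.2, 15.1, 18.6 and 25.2 CPM in cortex and 450.1, 52.6, 92.8, 112 and 101 CPM in cerebellum (3.11 ± 0.53; 2.27 without library 1). Gria2, the subunit that makes AMPA receptors impermeable to calcium, was lower in cerebellum at 132, 106, 88.5, 97.5 and 121 CPM in cortex and 68.8, 11.5, 16.5, 11.1 and 8.04 CPM in cerebellum (-2.23 ± 0.54; -3.19 without library 1). Gria1 and Gria4 took 1 direction and Gria2 the other. Gria3 did not pass with all libraries (-1.37 ± 0.53, adjusted p = 0.0697) but did without library 1 (-2.34, adjusted p = 1.14e-07). Among auxiliary subunits, Cacng3, a transmembrane AMPA receptor regulatory protein, was at 128 to 232 CPM in cortex and 9.19 to 19.4 CPM in cerebellum (-3.75 ± 0.25), and the cornichon protein Cnih3 at 77.8 to 103 CPM in cortex and 2.59 to 8.32 CPM in cerebellum (-4.03 ± 0.29). Cacng2, the stargazin gene first known from a cerebellar mutant, was at 50.1, 48.4, 44.3, 44.2 and 57.01 CPM in cortex and 143, 32.2, 28.1, 40.5 and 23.1 CPM in cerebellum and did not pass (0.13 ± 0.44, adjusted p = 0.863). Without library 1 it was lower in cerebellum (-0.64, adjusted p = 0.00285), and with the GC and length trend removed it was not called (0.24, adjusted p = 0.694).

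NMDA receptors pair an obligatory subunit, Grin1, with GluN2 subunits that set magnesium block and kinetics. Grin2b, a GluN2 subunit of forebrain synapses, was at 173, 208, 156, 158 and 142 CPM in cortex libraries 1 to 5 and 10.9, 12.6, 2.53, 2.24 and 2.27 CPM in cerebellum libraries 1 to 5. Grin2c, the GluN2 subunit of mature granule cells, was at 97.6, 109, 119, 117 and 84.5 CPM in cortex and 202, 275, 390.4, 234 and 257 CPM in cerebellum. The 2 genes differed in opposite directions without overlap, by -4.79 ± 0.54 and 1.37 ± 0.19 (adjusted p = 3.37e-05 and 0.000138; Grin2b -6.14 without cerebellum libraries 1 and 2). Grin2a was at 30.4, 31.2, 28.6, 27.5 and 49.9 CPM in cortex and 31.7, 1.56, 2.65, 2.84 and 2.86 CPM in cerebellum and did not pass (-2.02 ± 0.75, adjusted p = 0.0590), and without cerebellum library 1, the 1 cerebellum library at the cortex level, it was at -3.73 (adjusted p = 2.64e-09). Grin2d did not pass (0.25 ± 0.17). Grin1 passed at -0.49 ± 0.17 (adjusted p = 0.0435) and lost the call on leaving out cortex library 1, 2, 3 or 4 or cerebellum library 2, 4 or 5. It also lost the call without cerebellum libraries 1 and 2 (adjusted p = 0.0538) and without both libraries 2 (adjusted p = 0.201).

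Metabotropic glutamate receptors, which signal through G proteins, were sharply divided. On their list 3 of 10 tested members (11 listed) passed the test higher in cerebellum, 6 higher in cortex and 1 did not pass (median -1.30). Grm4, a presynaptic receptor of parallel fibres, was at 31.2, 37.7, 29.7, 28.7 and 20.6 CPM in cortex libraries 1 to 5 and 469, 544, 888, 553 and 575 CPM in cerebellum libraries 1 to 5 (4.36 ± 0.23, adjusted p = 1.21e-07). Grm5, the main group I receptor of the forebrain, was at 47.05, 46.3, 44.4, 49.3 and 54.8 CPM in cortex and 4.24, 0.520, 0.662, 0.896 and 0.583 CPM in cerebellum (-5.15 ± 0.55; -6.15 without cerebellum library 1). Grm2, found on cerebellar Golgi cells and on forebrain terminals, was higher in cortex at 56.1 to 88.4 CPM in cortex and 22.4 to 46.8 CPM in cerebellum (-1.17 ± 0.21).

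**Figure D4:**
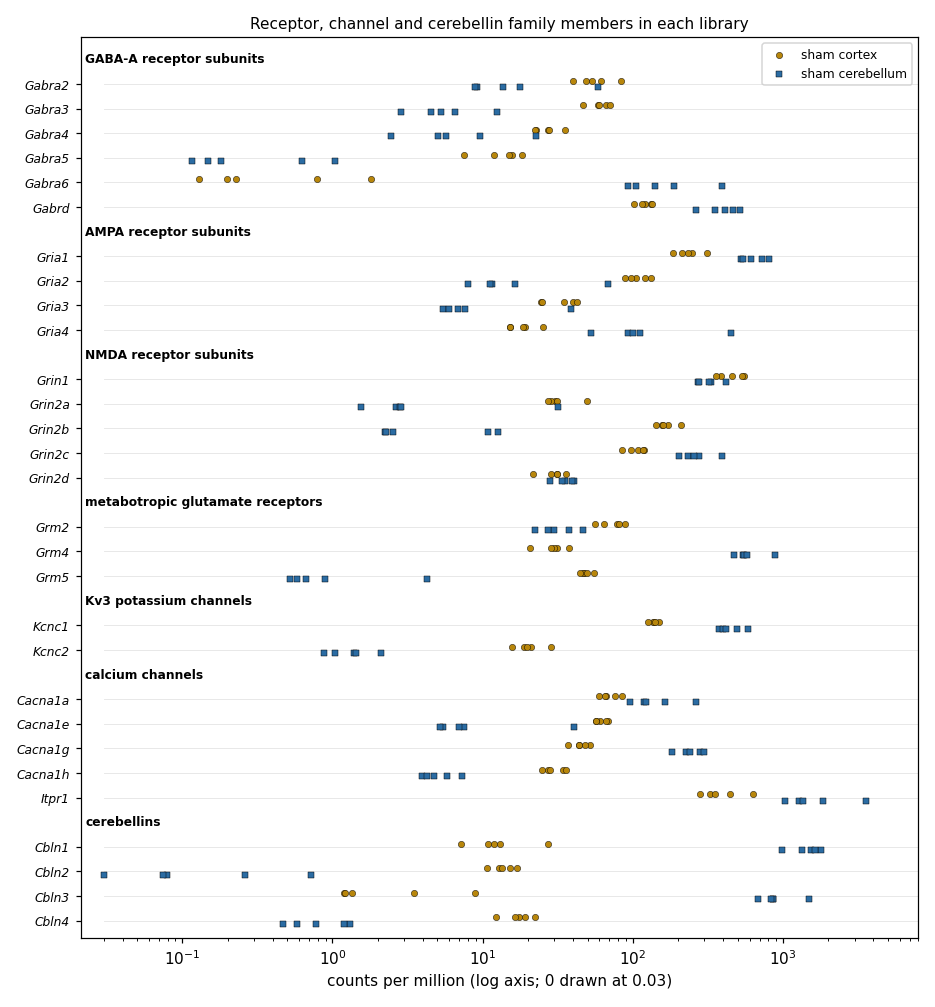
Level of receptor, channel and cerebellin family members in each of the 5 cortex (circles) and 5 cerebellum (squares) libraries, in CPM on a log axis, with 0 drawn at 0.03. Members of one family lie on opposite sides: Gabra6 against Gabra5, Grin2c against Grin2b, Grm4 against Grm5, Kcnc1 against Kcnc2 and Cbln1 against Cbln2. The single square far to the right of the others in Gria2, Gria3, Grin2a and Cacna1e is cerebellum library 1.

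Receptors for modulatory transmitters were mostly higher in cortex. For serotonin, dopamine, adrenergic and histamine receptors, 2 of 22 tested members (29 listed) passed the test higher in cerebellum, 14 higher in cortex and 6 did not pass (median -1.68). For cholinergic receptors the numbers were 2, 6 and 3 of 11 (median -1.71), and for neuropeptide, opioid, cannabinoid and adenosine receptors 2, 14 and 7 of 23 (median -2.70). Chrm1, the main muscarinic receptor of cortical pyramidal cells, was at 334, 416, 392, 328 and 264 CPM in cortex libraries 1 to 5 and 1.41, 12.4, 3.13, 2.09 and 4.02 CPM in cerebellum libraries 1 to 5. It differed by -6.25 ± 0.56 (adjusted p = 5.2e-06; -6.90 without both libraries 2), and cerebellum library 2 was again the highest of its region. Chrm3 was at 51.2 to 64.2 CPM in cortex and 0.874 to 3.90 CPM in cerebellum (-5.25 ± 0.42; -5.91 without both libraries 2). The serotonin receptors Htr1a and Htr2a were at 7.35 to 10.9 CPM in cortex and 0 to 0.520 CPM in cerebellum and 5.34 to 9.08 CPM in cortex and 0 to 0.707 CPM in cerebellum (-5.95 ± 0.65 and -4.86 ± 0.61), and the dopamine receptor Drd1 at 3.05 to 10.9 CPM in cortex and 0 to 0.867 CPM in cerebellum (-4.58 ± 0.70). Without both libraries 2, Htr1a and Drd1 stood at -7.22 and -5.59, and without cerebellum library 1 Htr2a stood at -5.74. In cerebellum Htr1a, Htr2a and Drd1 had 9, 16 and 19 reads over the 5 libraries.

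Not every modulatory receptor followed. Crhr1, a receptor for corticotropin-releasing hormone, was higher in cerebellum at 24.3, 34.9, 30.9, 26.1 and 22.9 CPM in cortex and 46.6, 59.9, 74.5, 52.2 and 55.7 CPM in cerebellum (1.05 ± 0.17, adjusted p = 0.000564). Adra2a and Sstr3 did not pass (-0.32 ± 0.17 and 0.23 ± 0.14), although Sstr3 did without cerebellum library 1 (0.32, adjusted p = 0.0498). Cnr1, the cannabinoid receptor of presynaptic terminals, was at 13.6, 15.4, 10.1, 12.4 and 27.4 CPM in cortex and 191, 10.4, 13.9, 21.8 and 10.5 CPM in cerebellum, and its difference of 1.65 ± 0.80 (adjusted p = 0.141) became -0.15 without library 1. Oprl1, the nociceptin receptor, was higher in cortex (-1.43 ± 0.21). Among receptor tyrosine kinases and Eph receptors, 8 of 28 tested members (30 listed) passed the test higher in cerebellum, 12 higher in cortex and 8 did not pass (median -0.31). Kit, a receptor of molecular layer interneurons, was at 33.8, 21.8, 21.9, 23.6 and 30.5 CPM in cortex and 222, 77.7, 90.6, 76.8 and 83.9 CPM in cerebellum (2.07 ± 0.31). Epha4 and Epha7, receptors for ephrin guidance cues, were higher in cortex (-3.17 ± 0.35 and -1.66 ± 0.36; Epha7 -2.32 without cerebellum libraries 1 and 2). Erbb4, the neuregulin receptor of interneurons, passed at -1.99 ± 0.60 (adjusted p = 0.0242), stood at -3.12 without cerebellum library 1, and lost the call without cortex library 1 or 5, cerebellum library 3, 4 or 5, or both libraries 2. The neurotrophin receptors Ntrk2 and Ntrk3 did not pass (-0.56 ± 0.24 and -0.10 ± 0.19), and Ntrk2 was lower in cerebellum without library 1 (-0.84, adjusted p = 6.1e-05).

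Voltage-gated potassium channels gave these counts: 6 of 40 tested members (43 listed) passed the test higher in cerebellum, 23 higher in cortex and 11 did not pass, with a median of -1.15. Kcnc1 encodes a Kv3 channel, a class that lets neurons fire at high rates. Kcnc1 was at 139, 149, 136, 127 and 140.5 CPM in cortex libraries 1 to 5 and 587, 376, 494, 400.1 and 419 CPM in cerebellum libraries 1 to 5. It was higher in every cerebellum library than in any cortex library (1.72 ± 0.15, adjusted p = 3.54e-06). Kcnc2, the Kv3 gene of cortical fast-spiking interneurons, took the other direction at 21.2, 18.9, 19.8, 15.7 and 28.3 CPM in cortex and 2.12, 1.39, 1.45, 1.04 and 0.874 CPM in cerebellum (-3.92 ± 0.28). The silent subunit Kcnv1 was at 30.6 to 45.5 CPM in cortex and 0 to 0.260 CPM in cerebellum (-8.63 ± 0.47; -9.29 without both libraries 2) and the silent subunit Kcnf1 at 46.02 to 72.5 CPM in cortex and 0.157 to 0.699 CPM in cerebellum (-7.15 ± 0.32). Kcnh3, an ether-a-go-go channel of the forebrain, and Kcnq5, a channel of the M-current, were higher in cortex (-5.55 ± 0.39 and -6.12 ± 0.48; Kcnq5 -6.75 without cerebellum libraries 1 and 2). Kcna2 was at 115, 85.6, 91.1, 89.9 and 118 CPM in cortex and 297, 45.2, 53.8, 46.2 and 42.5 CPM in cerebellum and did not pass (-0.04 ± 0.53), but was lower in cerebellum without library 1 (-1.07, adjusted p = 9.74e-06). With the GC and length trend removed Kcna2 was not called (-0.03, adjusted p = 0.931). Kcnd2, an A-type channel of granule cells, was at 20.2 to 42.8 CPM in cortex and 30.9 to 259 CPM in cerebellum and missed the threshold (1.52 ± 0.56, adjusted p = 0.0554; 0.50, adjusted p = 0.0485 without library 1). It also passed without cerebellum library 2 or 3 (1.74 and 1.71).

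Calcium channels included clear members in each direction. For calcium channels and intracellular release channels, 8 of 27 tested members passed the test higher in cerebellum, 9 higher in cortex and 10 did not pass (median -0.52; 8 and 17 calls without cerebellum library 1). The T-type channels, which open near rest and support bursting, divided: Cacna1g was at 52, 48.2, 44.1, 37.2 and 43.5 CPM in cortex and 282, 227, 299, 183 and 239 CPM in cerebellum and Cacna1h at 27.5, 34.4, 35.8, 28.3 and 24.9 CPM in cortex and 3.93, 5.81, 7.34, 4.78 and 4.25 CPM in cerebellum. Their differences were 2.45 ± 0.17 and -2.53 ± 0.21 (adjusted p = 5.53e-07 and 3e-06). Cacna1a, the P/Q-type channel of Purkinje cells and many terminals, was higher in cerebellum at 84.98, 75.8, 66.03, 59.97 and 65 CPM in cortex and 262, 95.7, 165, 118 and 122 CPM in cerebellum (1.12 ± 0.25). Cacna1e, the R-type channel, was higher in cortex (-2.23 ± 0.55; -3.28 without library 1). Itpr1, the calcium release channel of Purkinje cell endoplasmic reticulum, was at 636, 279, 329, 355 and 446 CPM in cortex libraries 1 to 5 and 3581, 1038, 1836, 1276 and 1355 CPM in cerebellum libraries 1 to 5 (2.15 ± 0.36, adjusted p = 0.000628). The ryanodine receptor Ryr1 was higher in cerebellum at 2.11 to 3.09 CPM in cortex and 9.78 to 16.7 CPM in cerebellum (2.36 ± 0.22). Ryr2 did not pass (-1.12 ± 0.43, adjusted p = 0.0624) until library 1 was left out (-1.80, adjusted p = 5.15e-07).

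Of 14 sodium channel genes tested, 2 were higher in cerebellum and 4 in cortex (median -0.77), and 2 and 10 without cerebellum library 1. Scn3b, a beta subunit, was at 77.2, 63.1, 112, 83.9 and 86.2 CPM in cortex and 1.10, 4.07, 3.49, 2.91 and 2.80 CPM in cerebellum (-4.87 ± 0.31). Of the pore subunits, Scn1a was at 32.5, 35.3, 27.1, 33.1 and 43.1 CPM in cortex and 131, 14.9, 23.9, 27.03 and 24.3 CPM in cerebellum and Scn2a at 157, 149, 136, 133 and 135 CPM in cortex and 198, 46.9, 42.2, 47.3 and 36.2 CPM in cerebellum. Neither passed (0.37 ± 0.52 and -0.94 ± 0.43), and without library 1 both were lower in cerebellum (-0.59 and -1.70, adjusted p = 0.0117 and 1.55e-08). With the GC and length trend removed, Scn1a was not called (0.42, adjusted p = 0.124) and Scn2a was lower in cerebellum (-0.78, adjusted p = 0.0015). Scn8a, the channel of axon initial segments, shared the pattern of Scn2a (-0.84 ± 0.31, -1.27 without library 1, and -0.59 with the trend removed). Scn4b, which gives resurgent current, was at 43.6 to 50.3 CPM in cerebellum and 21.5 to 31.4 CPM in cortex libraries 1 to 4, but at 62.2 CPM in cortex library 5. It did not pass (0.49 ± 0.26) and did so without that library (0.83, adjusted p = 0.00245).

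For inward rectifier, K2P and calcium-activated potassium channels, 6 of 26 tested members (27 listed) passed the test higher in cerebellum, 10 higher in cortex and 10 did not pass (median -0.32). Kcnk1, a K2P channel, was higher in cerebellum (0.89 ± 0.14), while Kcnj10, the glial inward rectifier, did not differ beyond its error (-0.04 ± 0.23). Kcnj3, Kcnk9 and Kcnma1 did not pass (-0.45 ± 0.44, -0.57 ± 0.31 and -0.31 ± 0.46) and were each called lower in cerebellum without library 1 (-1.20, -0.99 and -1.12). None of them was called with the GC and length trend removed (-0.42, -0.37 and -0.13). Among HCN, TRP, chloride and other channels, 4 of 36 tested members (38 listed) passed the test higher in cerebellum, 9 higher in cortex and 23 did not pass (median -0.15; 6 and 18 calls without library 1). Ano2, a calcium-activated chloride channel, and Asic4, a member of the acid-sensing family, were higher in cortex (-5.44 ± 0.54 and -3.27 ± 0.42; Ano2 -6.19 without cerebellum library 5). Hcn2 did not pass (0.08 ± 0.23).

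For transporters and transmitter enzymes, 9 of 23 tested members (30 listed) passed the test higher in cerebellum, 5 higher in cortex and 9 did not pass (median 0.45; 10 and 8 calls without library 1). Slc17a7, the vesicular glutamate transporter shared by cortical and granule neurons, was at 3535, 4550, 4929, 4212 and 3073 CPM in cortex and 939, 1393, 2013, 1429 and 1741 CPM in cerebellum (-1.43 ± 0.22). Slc32a1, the vesicular inhibitory transporter, was at 74.4, 64.03, 71.5, 63.1 and 86.3 CPM in cortex and 158, 134, 157, 133 and 152 CPM in cerebellum (1.03 ± 0.13), and Gad1, which makes GABA, at 142 to 209 CPM in cortex and 216 to 514 CPM in cerebellum (0.86 ± 0.24). The excitatory transporter was lower and the inhibitory pair higher in every cerebellum library. Slc6a5, the glycine transporter of Golgi cells, was at 0, 0.208, 0, 0.0754 and 0.580 CPM in cortex and 20.6, 4.42, 11.1, 5.97 and 6.94 CPM in cerebellum (5.64 ± 0.77; 6.83 without cortex library 5). In the bulbectomy libraries its difference was 0.73, with an interaction that did not pass (adjusted p = 1). Slc1a6, the Purkinje cell glutamate transporter, was at 17.2 to 30.01 CPM in cortex and 196 to 623 CPM in cerebellum (4.26 ± 0.33). Th, tyrosine hydroxylase, was higher in cerebellum at 1.13, 0.832, 1.58, 0.981 and 1.61 CPM in cortex and 5.26, 21.1, 29.6, 11.4 and 11.3 CPM in cerebellum (3.67 ± 0.46).

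Cerebellins, secreted C1q-family proteins that bridge neurexins to postsynaptic receptors, split by member. Cbln1, released by parallel fibres onto Purkinje cells, was at 10.8, 27.4, 13.1, 11.8 and 7.15 CPM in cortex libraries 1 to 5 and 988, 1543, 1790, 1341 and 1637 CPM in cerebellum libraries 1 to 5. Cbln3, its granule cell partner, was at 3.49, 8.94, 1.19, 1.21 and 1.35 CPM in cortex and 1501, 683, 862, 858 and 832 CPM in cerebellum. Cbln2 and Cbln4, used at forebrain synapses, were at 10.7 to 16.9 CPM in cortex and 0 to 0.722 CPM in cerebellum and at 12.2 to 22.2 CPM in cortex and 0.471 to 1.30 CPM in cerebellum. No group overlapped, and the differences were 6.69 ± 0.40, 8.19 ± 0.67, -5.84 ± 0.62 and -4.34 ± 0.32 (Cbln3 9.21 without cortex library 2 and cerebellum library 2, Cbln2 -7.08 without cerebellum library 3). Cortex library 2 was the highest cortex library for Cbln1 and Cbln3. The C1q-like genes C1ql2 and C1ql3 were higher in cortex (-1.75 ± 0.30 and -3.86 ± 0.26). C1ql1, which climbing fibres release onto Purkinje cells from cell bodies outside the cerebellum, did not pass (-0.64 ± 0.27), and was called lower in cerebellum without cerebellum library 1 (-0.43, adjusted p = 0.0407). Nptx1, a neuronal pentraxin, was higher in cerebellum at 304, 196, 299, 203 and 268 CPM in cortex and 800.1, 372, 456, 432 and 442 CPM in cerebellum (0.98 ± 0.23). Over the whole list of synapse organisers, 6 of 32 tested members (33 listed) passed the test higher in cerebellum, 13 higher in cortex and 13 did not pass (median -0.67; 7 and 22 calls without cerebellum library 1).

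Neuropeptides favoured the cortex: on the list of neuropeptides and interneuron genes, 5 of 29 tested members (30 listed) passed the test higher in cerebellum, 19 higher in cortex and 5 did not pass (median -2.25). Sst, somatostatin, was at 212, 145, 189, 164 and 182 CPM in cortex libraries 1 to 5 and 1.33, 21.8, 7.58, 4.03 and 5.95 CPM in cerebellum libraries 1 to 5 (-4.46 ± 0.58; -5.25 without cortex library 2 and cerebellum library 2). Vip was at 15.1 to 20.4 CPM in cortex and 0 to 0.260 CPM in cerebellum (-7.49 ± 0.51; -8.19 without both libraries 2), Npy at 51.5 to 88.2 CPM in cortex and 6.67 to 28.8 CPM in cerebellum (-2.23 ± 0.35) and Cck at 491 to 782 CPM in cortex and 38.9 to 186 CPM in cerebellum (-2.66 ± 0.35). Crhbp, which binds corticotropin-releasing hormone, was at 14.6 to 30.4 CPM in cortex and 0 to 0.233 CPM in cerebellum (-7.44 ± 0.46). Penk, the enkephalin precursor found in Golgi cells, was the other way at 82.95, 67.2, 101, 84.5 and 104 CPM in cortex and 131, 226, 238, 217 and 233 CPM in cerebellum (1.25 ± 0.19, adjusted p = 0.000296; 0.0834 with all 24 libraries in 1 fit).

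The calcium buffers Calb2, Pvalb and Calb1 were higher in cerebellum. Calb2, calretinin, a buffer of granule cells, was at 19.6, 26.2, 23.6, 15.2 and 13.7 CPM in cortex libraries 1 to 5 and 451, 933, 885, 762 and 739 CPM in cerebellum libraries 1 to 5. Pvalb, parvalbumin, of Purkinje cells and molecular layer interneurons, was at 142, 195, 162, 132 and 116 CPM in cortex and 819.6, 5130, 3101, 2202 and 2298 CPM in cerebellum, and Calb1, calbindin, of Purkinje cells, at 108, 71.2, 77.2, 71.5 and 84.6 CPM in cortex and 642, 379, 336, 353 and 346 CPM in cerebellum. They were higher in every cerebellum library, by 5.26 ± 0.28, 4.18 ± 0.42 and 2.32 ± 0.22 (adjusted p = 1.19e-07, 1.35e-05 and 6.55e-06). Within cerebellum, Pvalb was lowest in library 1 and Calb1 highest there. The wider list of calcium-binding and calcium-dependent proteins leaned to cortex: 7 of 31 tested members (32 listed) passed the test higher in cerebellum, 15 higher in cortex and 9 did not pass (median -0.53). Camk2a, the abundant kinase of forebrain excitatory synapses, was at 4806, 4206, 4805, 4187 and 3988 CPM in cortex and 116, 169, 136, 83.4 and 127 CPM in cerebellum (-5.12 ± 0.22, adjusted p = 4.05e-08), and Hpca, hippocalcin, at 499.8 to 630.1 CPM in cortex and 103 to 182 CPM in cerebellum (-1.87 ± 0.17).

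Marker genes matched the tissue labels. The defining granule cell markers Gabra6, Cbln3, Fat2 and Neurod1, the Purkinje cell markers Pcp2, Car8, Calb1 and Itpr1 and the Bergmann glia marker Gdf10 were higher in every cerebellum library than in any cortex library. Neurod6, Tbr1, Camk2a, Lhx6, Sst and Vip were higher in every cortex library. Of granule cell genes 22 of 28 tested members passed the test higher in cerebellum, 3 higher in cortex and 3 did not pass (median 1.63), and of Purkinje cell genes 24 of 29 tested members passed the test higher in cerebellum, 1 higher in cortex and 4 did not pass (median 3.13). Pcp2, a Purkinje cell regulator of G proteins, was at 1.35, 5.61, 0.593, 0.604 and 0.322 CPM in cortex libraries 1 to 5 and 167, 749, 593, 357 and 436 CPM in cerebellum libraries 1 to 5 (8.07 ± 0.81), and Car8, which binds the Itpr1 channel, at 3.32 to 7.62 CPM in cortex and 136 to 602 CPM in cerebellum (5.67 ± 0.49). Fat2, a cadherin of parallel fibres, was at 0.377 to 6.17 CPM in cortex and 214 to 633 CPM in cerebellum (7.29 ± 0.72), and Ppp1r17, a phosphatase inhibitor of Purkinje cells, at 0.132 to 1.59 CPM in cortex and 131 to 159.9 CPM in cerebellum (8.18 ± 0.53). Without cortex library 2 and cerebellum library 2, Pcp2, Fat2 and Ppp1r17 were at 9.20, 8.40 and 9.41. Pcp2 and Gng13 share 51.5% and 51.6% of their exons with genes on the other strand, and the strand setting of the counting is not given in the sources used here.

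Of cortical projection neuron genes, 5 of 46 tested members (47 listed) passed the test higher in cerebellum, 37 higher in cortex and 4 did not pass (median -3.08), and of cortical interneuron genes 8 of 26 tested members (28 listed) passed the test higher in cerebellum, 15 higher in cortex and 3 did not pass (median -1.97). On the interneuron list, 21 of its members stand in another list as well, and its cerebellar calls include Pvalb and Calb2. Ddn, a protein of dendritic shafts, was at 754, 561, 769.5, 825 and 934 CPM in cortex libraries 1 to 5 and 1.57, 20.2, 2.17, 1.72 and 3.03 CPM in cerebellum libraries 1 to 5. It differed by -7.09 ± 0.79, and by -8.55 without cortex library 2 and cerebellum library 2. Lamp5, a membrane protein of cortical neurons, was at 227 to 288 CPM in cortex and 1.75 to 11.8 CPM in cerebellum (-5.91 ± 0.54; -6.77 without both libraries 2). Of cerebellar interneuron, Golgi and unipolar brush cell genes, 10 of 18 tested members (20 listed) passed the test higher in cerebellum, 5 higher in cortex and 3 did not pass (median 0.76). Further genes with the largest differences, named by rank, were Slc5a1, a sodium-glucose transporter with 1 read in cortex and 978 in cerebellum, and Tmem215 and Zfp831, at 9.81 to 14.9 CPM in cortex and 0 to 0.173 CPM in cerebellum and 12.3 to 17.9 CPM in cortex and 0 to 0.260 CPM in cerebellum. Tmem215 had 3 reads in cerebellum, and its cortex level was 299 (95% counting interval 102 to 1450) times higher.

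Glial genes differed by cell type. Of pan-astrocyte genes, 11 of 37 tested members passed the test higher in cerebellum, 9 higher in cortex and 17 did not pass (median 0.18). Aqp4, Gfap and Aldh1l1, a water channel, a filament protein and a folate enzyme of astrocytes, did not pass (1.41 ± 0.55, -0.19 ± 0.36 and 0.25 ± 0.25). Aqp4 was at 323 CPM in cerebellum library 1 and at 37.4 to 65.5 CPM in the other 4. Its difference was 0.38 without library 1 (adjusted p = 0.102), and it passed without library 2 (1.63, adjusted p = 0.0368) and without both (0.50, adjusted p = 0.0351). Aldh1l1 passed without library 1 (0.43, adjusted p = 0.0424). On the list of region-patterned astrocyte and Bergmann glia genes, 21 of 35 tested members were higher in cerebellum, 9 higher in cortex and 5 did not pass (median 1.44). Genes of Bergmann glia were listed as cerebellar, so this count describes the list and not astrocytes in general. Of its 36 symbols, 17 stand in another list as well. Gdf10, a growth factor of Bergmann glia, was at 7.09, 11.4, 11.7, 7.32 and 6.18 CPM in cortex libraries 1 to 5 and 204, 163, 216, 171 and 179 CPM in cerebellum libraries 1 to 5 (4.41 ± 0.22, adjusted p = 9.94e-08). Dao, which degrades D-serine, was at 0.263 to 3.33 CPM in cortex and 146 to 346 CPM in cerebellum (7.78 ± 0.59; 8.57 without both libraries 2), and Hopx, a homeodomain-like protein, at 6.49 to 13.3 CPM in cortex and 36.9 to 63.8 CPM in cerebellum (2.42 ± 0.23). The glutamate transporters of astrocytes took opposite directions. Slc1a3, the transporter of Bergmann glia, was higher in cerebellum (0.96 ± 0.25), and Slc1a2, the forebrain transporter, higher in cortex (-1.80 ± 0.46; -2.53 without cerebellum library 1).

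Most myelin genes passed higher in cerebellum: 21 of 34 tested members passed the test higher in cerebellum, 2 higher in cortex and 11 did not pass (median 1.13). Their summed level was 5345, 3745, 4552, 4460 and 4435 CPM in cortex libraries 1 to 5 and 7512, 10610, 9451, 9709 and 8828 CPM in cerebellum libraries 1 to 5, without overlap. Mbp, myelin basic protein, was at 1414, 892, 1222, 1125 and 1213 CPM in cortex and 2383, 2724, 2743, 2857 and 2587 CPM in cerebellum (1.18 ± 0.15, adjusted p = 7.3e-05), and Mog, on the outer myelin surface, at 39.4, 35, 34.04, 43.9 and 31.2 CPM in cortex and 52.8, 145, 98.1, 114 and 93.4 CPM in cerebellum (1.46 ± 0.23). Precursor genes leaned the other way, with 3 higher in cerebellum, 7 in cortex and 11 not passing of 21 (median -0.37; 3 and 11 calls without cerebellum library 1 and 2 and 4 without cortex library 2 and cerebellum library 2). Pdgfra, the growth factor receptor of precursors, was at 38.7, 17.9, 28.1, 31 and 36.9 CPM in cortex and 18.4, 7.19, 8.61, 7.69 and 8.63 CPM in cerebellum (-1.59 ± 0.30), and Cspg4, their surface proteoglycan, at 22.7 to 35.6 CPM in cortex and 8.96 to 17.7 CPM in cerebellum (-1.39 ± 0.23). Bcas1, of oligodendrocytes that are starting to myelinate, was higher in cerebellum (1.01 ± 0.17).

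Microglial genes were mostly higher in cortex: 1 of 38 tested members passed the test higher in cerebellum, 28 higher in cortex and 9 did not pass (median -1.49). Cx3cr1, the fractalkine receptor, was at 115, 91.8, 80.5, 106 and 95.8 CPM in cortex libraries 1 to 5 and 26.5, 30.3, 16.1, 28.9 and 30.2 CPM in cerebellum libraries 1 to 5 (-1.89 ± 0.19, adjusted p = 1.25e-05). Csf1r, the receptor microglia need to survive, was at 471, 515, 348, 553 and 341 CPM in cortex and 67.9, 165, 114, 169 and 170.5 CPM in cerebellum (-1.70 ± 0.26), and Tmem119 at 123, 152, 103, 165 and 96.4 CPM in cortex and 19, 61.4, 32.9, 58.4 and 51.1 CPM in cerebellum (-1.52 ± 0.30). The groups did not overlap in these 3 genes. P2ry12, a purine receptor of resting microglia, and C1qa, of the complement system, passed narrowly (-2.06 ± 0.65 and -1.22 ± 0.40, adjusted p = 0.0292 and 0.0341). P2ry12 lost its call on leaving out any 1 of 8 libraries (adjusted p of 0.0522 to 0.0673) and without both libraries 2 (adjusted p = 0.0937). It kept the call without cerebellum library 5, and without cerebellum library 1, where it stood at -3.27. C1qa lost its call without cortex library 1, 2 or 4, cerebellum library 3, or both libraries 2. The summed level of the list varied within each region, 6001, 6604, 3788, 8333 and 5954 CPM in cortex libraries 1 to 5 and 1597, 4117, 2084, 5369 and 4120 CPM in cerebellum libraries 1 to 5, so the sums overlap. Among endothelial, mural, meningeal and blood genes, 26 of 29 did not pass (2 higher in cerebellum, 1 in cortex, median 0.15; 8 and 4 calls without cerebellum library 1 and 0 and 0 without both libraries 2). The haemoglobin gene Hbb-bs was at 93.3, 105, 202, 265 and 123 CPM in cortex and 37.6, 217, 365, 412 and 385 CPM in cerebellum (0.85 ± 0.52), and Cldn5, an endothelial tight junction gene, differed by 0.48 ± 0.34. Neither passed, and both were called higher in cerebellum without library 1 (1.15 and 0.73, adjusted p = 0.0121 and 0.00284).

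**Figure D5:**
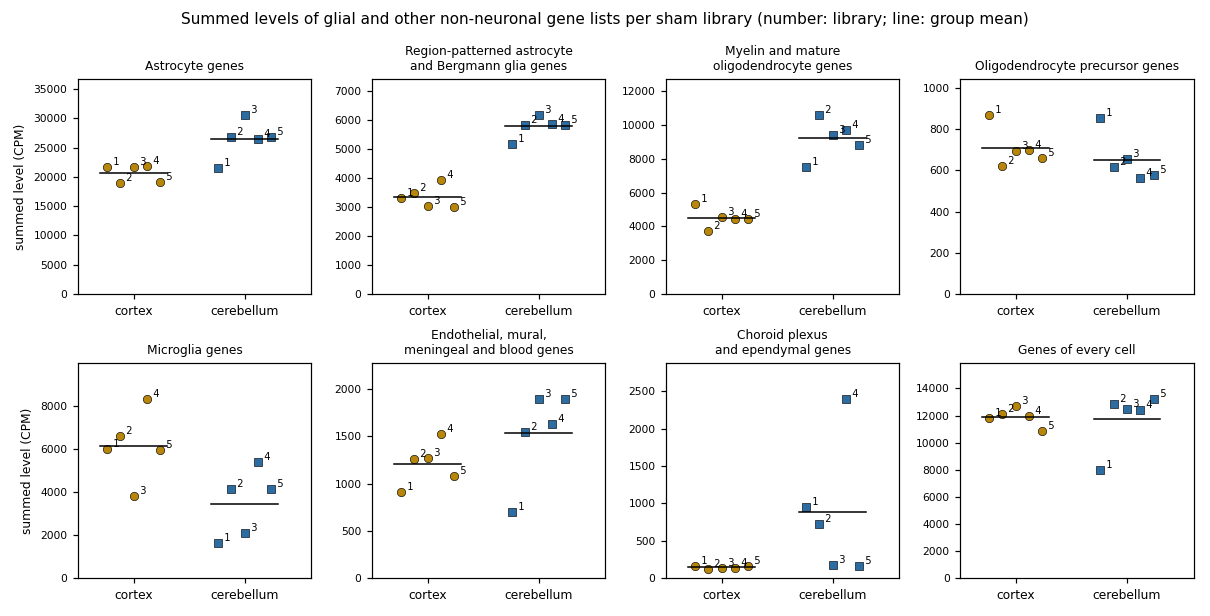
Summed level, in CPM, of 8 gene lists in each of the 5 cortex (circles) and 5 cerebellum (squares) libraries, with the library number beside each point and the group mean as a line. Myelin genes and region-patterned glial genes are higher in every cerebellum library, microglial genes overlap, and choroid plexus genes are high in cerebellum libraries 1, 2 and 4 (725 to 2400 CPM) and low in 3 and 5 (173 and 162 CPM).

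Genes known from neighbouring tissues were also counted, and their part in the other results was not tested. Of choroid plexus and ependymal genes, 12 of 16 tested members (20 listed) passed the test higher in cerebellum, 0 higher in cortex and 4 did not pass (median 2.39). Ttr, the transthyretin gene that choroid plexus makes in bulk, was at 4.28, 2.98, 1.91, 1.66 and 5.15 CPM in cortex libraries 1 to 5 and 396, 257, 14.8, 1244 and 6.53 CPM in cerebellum libraries 1 to 5 (6.91 ± 1.31; 5.73 without cerebellum library 4; adjusted p = 0.0755 with limma voom). Folr1, a folate receptor of the same epithelium, followed it at 9.74, 34.2, 2.41, 75.9 and 2.04 CPM in cerebellum (4.67 ± 1.03; 3.62 without library 4; adjusted p = 0.0629 with limma voom). Foxj1, the factor of motile cilia, was at 4.73, 4.30, 4.21, 5.43 and 6.38 CPM in cortex and 13.1, 23.3, 24.5, 29.04 and 27.9 CPM in cerebellum (2.23 ± 0.24). Of striatal genes 9 of 19 were higher in cortex and 4 in cerebellum. Ppp1r1b, whose product is DARPP-32, was higher in cerebellum at 168, 224, 192, 179 and 183 CPM in cortex and 181, 601, 599.7, 473 and 482 CPM in cerebellum (1.30 ± 0.27, adjusted p = 0.00298; 0.0505 with all 24 libraries in 1 fit). In the order cerebellum, cortex, the counts were 2 and 10 of 16 for hippocampal genes and 4 and 5 of 14 for thalamic genes. The thalamic counts were 2 and 4 without both libraries 2. For brainstem and deep cerebellar nucleus genes the counts were 4 and 0 of 7. Of that list's 23 symbols, 13 stand in another list as well, and the deep nuclei are part of the cerebellum. Tph2, of serotonin neurons, was under the filter at 0 to 0.550 CPM in cerebellum.

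Activity-regulated genes were mostly higher in cortex, with 12 of 19 tested immediate early genes passing in that direction, 1 in the other and 6 not passing (median -1.95). Arc, which acts at synapses after activity, was at 92.4, 82.9, 104, 149 and 356 CPM in cortex and 16.2, 13.7, 21.6, 20.98 and 18.3 CPM in cerebellum (-3.11 ± 0.40), and Egr1, a zinc-finger factor, at 163, 152, 189, 231 and 281 CPM in cortex and 46.1, 40.8, 42.2, 44.4 and 64.9 CPM in cerebellum (-2.09 ± 0.21). Egr3 was at 61.8 to 153 CPM in cortex and 0 to 2.77 CPM in cerebellum (-7.24 ± 0.84; -8.96 without both libraries 2). Fos was at 7.77, 11.02, 15.3, 21.2 and 43.6 CPM in cortex and 4.24, 6.15, 8.73, 24.04 and 27.9 CPM in cerebellum and did not pass (-0.48 ± 0.58), with the values of each region spread over more than the gap between their means. Of genes of every cell, 3 of 24 tested members passed the test higher in cerebellum, 3 higher in cortex and 18 did not pass (median 0.06; 4 and 5 calls without cerebellum library 1 and 0 and 2 without both libraries 2). Gapdh and Tbp did not pass (-0.02 ± 0.23 and 0.11 ± 0.21), while Actb was higher in cortex at 1474, 1254, 1325, 1142 and 1196 CPM in cortex and 904, 737, 830.2, 929 and 846 CPM in cerebellum (-0.59 ± 0.13, adjusted p = 0.00407; 0.0515 with no scaling factor).

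The same region contrast in the 3 cortex and 2 cerebellum bulbectomy libraries called 3025 of 14910 genes (20.3%). Of 4872 genes called in sham mice and tested there, 4835 (99.2%) had the same direction, and of 1507 called over 2-fold, 1506 (99.9%) did. Over all 14354 genes tested in both, 84.9% had the same direction. Tbr1, Gabra6, Cbln1 and Grm4 differed by -8.99, 8.62, 6.73 and 4.74 in bulbectomy libraries, beside -6.41, 8.20, 6.69 and 4.36 in sham libraries. Gdf10, Mbp and Cx3cr1, of glia, differed by 4.04, 1.06 and -2.21, beside 4.41, 1.18 and -1.89. For the genes that turned on cerebellum library 1, the bulbectomy libraries gave -0.52 for Scn1a, -2.95 for Grin2a and 0.43 for Rora. A test of whether the region difference itself differed with the operation called 0 of 16325 genes (0%) with edgeR, 4 with DESeq2 and 1 with limma voom, and 251 had an unadjusted p under 0.05.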

How the data were processed

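Libraries were prepared from polyadenylated RNA with a directional kit and sequenced on an Illumina NextSeq 2000, per the labels' protocols. Trimmomatic, STAR and featureCounts with mm10 are named, without versions, in the submitters' processing notes; the strand setting is not given in the sources used here. The deposited files hold whole-number counts of reads per gene, not normalized. In the 10 sham libraries, 2.79% to 9.22% of reads fell on no gene and 4.04% to 5.02% were ambiguous; these rows entered no library size. Of 55487 gene identifiers, 55227 were matched to GENCODE M21 for names, exon length and GC content.

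Counts were fitted with edgeR 4.0.16 (limma 3.58.1, R 4.3.3): filterByExpr, TMM scaling, robust quasi-likelihood F-test, Benjamini-Hochberg adjustment over all genes tested, called under 0.05, and glmTreat against a 2-fold difference. Only the 10 sham libraries entered the sham comparison. The script was tested on simulated data: of 50 genes changed 4-fold among 14649, 43 were called, of 50 changed to 0.5, 9 were called, and of 14449 unchanged, 6. Sums over lists are given without a test. Intervals on few reads are exact binomial ones and cover counting error only. The smallest exact permutation p for 5 against 5 libraries is 0.00794.

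Members and gene lists (43 lists, 941 symbols) were chosen with earlier results of these data known. Genes are named because they are in a panel of 182 marked in those lists, or are among the 10 largest fold changes in each direction called over 2-fold with a mean of at least 10 CPM in the higher region and no predicted name; some of these genes are not reported here. Alternatives changed scaling, test (DESeq2 1.42.0, limma voom), read filter, robustness, replicate block, libraries, mitochondrial genes, a GC and length trend, and the fold threshold. Leaving out cerebellum libraries 1 and 2 together, or cortex and cerebellum library 2 together, was added after seeing the data. Promoter windows are from RefSeq (GRCm38.p6). No pair of replicates agreed within sampling noise.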

Additional observations from a re-analysis of the deposited data

Results flagged for a closer look

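In 356 groups of 5 libraries (named genes with more than 3 reads in the region, and 5 library measures), 47 (13.2%) held a library far from the other 4. The rule was Dixon's ratio of gap to range, on log2 levels for genes and on the library measures as they stood. It flags about 1 in 20 single groups by chance, but these groups share the same libraries, so the share was not tested. Most of the 47 were in cerebellum library 1, the library high in genes of low GC content. It was high, in CPM beside the range of the other cerebellum libraries, for Aqp4 323 (others 37.4 to 65.5), Cacna1e 40.7 (others 5.19 to 7.52), Calb1 642 (others 336 to 379), Camk4 172 (others 34.1 to 42.3), Cnr1 191 (others 10.4 to 21.8), En2 68.2 (others 16.8 to 21.7), Erbb4 11.2 (others 1.38 to 1.87), Gria3 39.02 (others 5.46 to 7.64), Grin2a 31.7 (others 1.56 to 2.86), Grm5 4.24 (others 0.520 to 0.896), Kcna2 297 (others 42.5 to 53.8), Kcnd2 259 (others 30.9 to 50.03), Kcnj3 79.5 (others 17.1 to 18.1), Kcnma1 152 (others 26.4 to 34.2), Kit 222 (others 76.8 to 90.6), Lgi2 94.4 (others 27.7 to 37.6), Neurod1 335 (others 45.3 to 64.8), Nptx1 800.1 (others 372 to 456), Ntrk2 398 (others 169 to 206), Ntrk3 108 (others 58.3 to 68.7), Pdgfra 18.4 (others 7.19 to 8.63), Rora 186 (others 14.4 to 27.2), Scn1a 131 (others 14.9 to 27.03), Scn2a 198 (others 36.2 to 47.3), Slc1a3 1377 (others 504 to 649), Tfap2b 56.3 (others 11.3 to 17.3). It was low for Cldn5 26.9 (others 84.6 to 133), Foxj1 13.1 (others 23.3 to 29.04), Hbb-bs 37.6 (others 217 to 412), Hpca 103 (others 160.1 to 182), Penk 131 (others 217 to 238), Ppp1r1b 181 (others 473 to 601). Cerebellum library 2 was high for Chrm3 3.90 (others 0.874 to 1.04), Ddn 20.2 (others 1.57 to 3.03), Fezf2 1.39 (others 0 to 0), Lamp5 11.8 (others 1.75 to 2.75), Lhx2 2.69 (others 0.224 to 0.408), all genes higher in cortex. Its share of reads on no gene was 9.22%, against 2.79% to 3.86% in the other 4. Its share of reads in the 10 most abundant genes was 27.6%, against 8.39% to 10.2% in the other 4. Cerebellum library 3 stood apart for Cx3cr1 16.1 (others 26.5 to 30.3). Cerebellum library 5 stood apart for Egr1 64.9 (others 40.8 to 46.1). Cortex library 1 stood apart for Tcf7l2 1.24 (others 2.50 to 3.22). Cortex library 3 stood apart for Zic1 3.75 (others 6.98 to 8.89). Cortex library 5 stood apart for Aldh1l1 122 (others 186 to 204), C1ql1 18.8 (others 25.3 to 28.6), Cspg4 22.7 (others 31.9 to 35.6), Grin2a 49.9 (others 27.5 to 31.2). The part of these libraries in the results was not tested beyond leaving them out, sample weights in voom and removal of the GC and length trend.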

How the results depend on the processing

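Of the libraries left out 1 at a time, cerebellum library 1 moved the count of genes called most. Leaving out 1 library at a time gave 2120 to 4153 genes higher in cerebellum and 1902 to 4249 higher in cortex, and 802 to 1504 over 2-fold higher in cortex, the highest each time without cerebellum library 1. Voom with sample weights called 4289 and 4513, removal of the GC and length trend 3895 higher in cerebellum, and leaving out cerebellum libraries 1 and 2 gave 4129 higher in cortex and 1531 over 2-fold. A threshold of 1.5-fold in place of 2-fold called 1187 and 1378, and of 4-fold 271 and 403. In bulbectomy libraries voom called 5578, the replicate block 5323, and leaving out 1 library 1312 to 4791; the interaction had 4 calls with DESeq2 and 1 with voom. Equal replicate numbers name no shared animal. Same-numbered libraries correlated at -0.242 to 0.5 in their deviations from the region means, and others at -0.442 to 0.563, and 4 of 5 cortex libraries and 3 of 5 cerebellum libraries correlated best with their own number. 4 of the 5 same-numbered pairs were over 0.1 and the pair numbered 5 was at -0.242, and the labels state no pairing, so the block is given as an alternative only. The replicate block gave 2539 and 2904 calls, 652 and 1037 over 2-fold, and 0 for the interaction. Genes that gained a call with it, with their adjusted p, were Gria3 (0.00560), Grik1 (0.0358), Grin2a (0.00532), Ntrk2 (0.0222), Scn2a (0.0117), Scn8a (0.00622), Ryr2 (0.00837) and Slc17a6 (0.0453). Of 4232 values of 177 named genes under the alternatives, 3988 kept their direction and side of the threshold, 116 gained a call, 65 lost one and 63 changed sign. Sign changes (log2) were, with no scaling factor Ntrk3 0.054, Kcna2 0.19, Kcnj10 0.12, Gapdh 0.062; with voom Rora -0.35, Cacng2 -0.70, Cnr1 -0.031, Scn1a -0.45, Lgi2 -0.065, Gja1 -0.43, Gapdh 0.073, Fos 0.14; with the replicate block Cacng2 -0.26, Scn1a -0.15, Gja1 -0.089; without mitochondrial genes Kcna2 0.024, Kcnj10 0.025, Gapdh 0.024; with the GC and length trend removed Ntrk3 0.68, Kcnj10 0.053; with all 24 libraries in 1 fit Kcna2 0.028, Kcnj10 0.051, Gapdh 0.071; without cerebellum libraries 1 and 2 Rora -0.40, Cacng2 -0.68, Cnr1 -0.041, Scn1a -0.45, Lgi2 -0.082, Gja1 -0.27, Gapdh 0.15, Fos 0.024; without cortex and cerebellum library 2 Kcna2 0.096, Gapdh 0.025. With 1 library left out, the ranges of genes that changed sign were Cacng2 -0.64 to 0.32, Cnr1 -0.15 to 1.93, Fos -0.87 to 0.032, Gapdh -0.15 to 0.16, Gfap -0.32 to 0.045, Gja1 -0.37 to 0.23, Hcn2 -0.051 to 0.25, Kcna2 -1.07 to 0.15, Kcnj10 -0.16 to 0.11, Lgi2 -0.092 to 0.52, Ntrk3 -0.28 to 0.028, Rora -0.35 to 1.27, Scn1a -0.59 to 0.60, Tbp -0.013 to 0.23. Of these, Ntrk3 was called with the trend removed, Cacng2 and Scn1a were called lower in cerebellum with voom, without cerebellum library 1 and without cerebellum libraries 1 and 2, and the rest were called in neither direction under the setting that turned them. Without a scaling factor the median over all genes moved from 0.06 to 0.19. Settings other than leaving out libraries ended calls as follows: RLE scaling and leaving out mitochondrial genes Grin1 and Gabra2; no read filter Grin1, Gabra2, Erbb4, P2ry12 and C1qa; no scaling factor Grin1, Gabra2, Gabra4, Erbb4, P2ry12 and Actb; all 24 libraries in 1 fit Grin1, Penk and Ppp1r1b; voom Ttr and Folr1. With the GC and length trend removed, calls in cerebellum and cortex were 10 and 21 for voltage-gated potassium channels, 11 and 16 for calcium-binding proteins, 7 and 11 for HCN, TRP, chloride and other channels and 3 and 7 for sodium channels. Cacng2, Sstr3, Ntrk2, Kcna2, Kcnj3, Kcnk9, Kcnma1, Scn1a, Aldh1l1, Slc7a10, Cldn5 and Hbb-bs were called without cerebellum library 1 but not with this trend removed. Depth limits genes under about 0.18 to 0.30 CPM, and the 4-fold changes of the simulation were called more often than smaller ones.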

Other observations

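Within gene families, levels per length (RPKM, reads scaled to exon length and library size) gave the share of each member in each library. The shares depend on exon length and on GC content, which differs between members and moved with cerebellum library 1, and no test was made. Gabra6 made up 68.1% to 82.3% of the summed alpha subunits in cerebellum libraries and 0.0901% to 1.79% in cortex libraries. Gabra3 made up 29.5% to 39.3% in cortex and 1.26% to 2.49% in cerebellum. Among T-type calcium channels, Cacna1g was 71.8% to 74.5% of the sum in cerebellum and 20.7% to 26.5% in cortex, where Cacna1i was 55.3% to 62.9%. Grm4 was 65.1% to 85.2% of the summed metabotropic receptors in cerebellum, and 8.65% to 14.3% in cortex, where Grm2 had the largest median share (36.9%). Kcnc4 was 39.2% to 49.3% of Kv3 subunits in cortex and 8.96% to 16.97% in cerebellum. Slc1a6, the Purkinje cell transporter, was 30.8% to 78.6% of the 4 glutamate transporters in cerebellum, with the lowest share in library 1, and 5.71% to 14.1% in cortex.

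The region difference also moved with GC content. With all libraries the median fold change was -0.02 in the quartile of genes with the lowest GC content and 0.15 in the highest, and without cerebellum library 1 it was -0.47 and 0.28. The alternative with the trend over GC content and length removed gave -1.75 for Gria2, -2.14 for Grin2a, 0.42 for Scn1a and 0.97 for Rora, beside -2.23, -2.02, 0.37 and 1.02 without that step. It newly called Rora (adjusted p = 0.00698), Grik1 (0.00784), Grik2 (7.78e-05) and Grin2d (0.0082) higher in cerebellum. Ntrk3 (0.0394), Kcnd2 (0.0065), Camk4 (0.0345) and Aqp4 (0.000968) were also newly called higher there. Newly called lower there were Gria3 (0.00029), Grin2a (0.000716), Scn2a (0.0015), Scn8a (0.0117), Ryr2 (0.0026), Slc17a6 (0.0337) and C1ql1 (0.00105).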
